A study of Mus musculus with 14 samples.

Results

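The liver mRNA of 7 secreted plasma carriers was followed: albumin (Alb), transthyretin (Ttr), retinol-binding protein 4 (Rbp4), fetuin-A (Ahsg), corticosteroid-binding globulin (Serpina6), vitamin D-binding protein (Gc) and fetuin-B (Fetub). They were taken by gene symbol, and all 7 were found among the 17656 genes listed in each of 14 liver RNA-seq libraries, each from a single mouse. C57BL/6 mice at 8 weeks of age received saline or concanavalin A (ConA, a plant lectin that activates T cells and causes an immune-mediated hepatitis) at 8 mg/kg through the tail vein, and the livers were harvested after 8 h. The groups were WT saline (n = 3), Ythdf1 knockout with saline (KO saline, n = 3), WT ConA (n = 4) and Ythdf1 knockout with ConA (KO ConA, n = 4). Ythdf1 encodes a cytoplasmic reader of the N6-methyladenosine mark on mRNA. The knockout was made with CRISPR/Cas9 in the whole mouse, not in hepatocytes alone.

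Hepatocytes secrete most of the protein of blood plasma. Albumin holds the osmotic pressure of plasma and carries fatty acids, bilirubin and drugs, while the smaller carriers each serve a narrower set of ligands. During inflammation, cytokines such as IL-6, IL-1 and TNF-α redirect hepatocyte transcription toward positive acute-phase proteins, such as serum amyloid A. The plasma proteins whose synthesis falls at the same time are known as negative acute-phase proteins, and albumin, transthyretin, retinol-binding protein and fetuin-A are the usual examples.

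All 7 genes are protein coding, and their positions are those of the GENCODE vM21 annotation of GRCm38. Rbp4 (gene identifier 19662) lies on chromosome 19 from 38116629 to 38125281 on the minus strand, and Serpina6 (12401) on chromosome 12 from 103646630 to 103657212 on the minus strand. Ahsg (11625) lies on chromosome 16 from 22891277 to 22899449 and Fetub (59083) from 22918334 to 22939778, both on the plus strand and 18.9 kb apart, with the histidine-rich glycoprotein gene Hrg as the next neighbour. Ttr (22139) lies on chromosome 18 from 20665280 to 20674321 on the plus strand. Every stretch of 50 bases, the length of the reads, in the longest coding transcript of each of the 7 genes was found in no other gene of the annotation.

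The values are TPM, in which reads are divided by gene length and a library is scaled to 1000000, so that levels can be compared between genes. The number of reads is unknown, and the error is therefore that between mice. Ythdf1 had 12.03 to 13.9 TPM (WT) and 18.4 to 20.8 TPM (KO) with saline, and 18.7 to 25.6 TPM (WT) and 15.5 to 26.2 TPM (KO) after ConA. The deletion removes exon 3, and a whole-gene TPM does not check it, so the loss of the gene is not shown in these libraries. WT saline replicates 2 and 3 were closer to each other than the other 17 pairs within a group. Their median absolute log2 ratio was 0.116, against 0.244 to 1.81. It was taken over the 100 genes most variable among the KO saline livers. That choice by itself sets the KO saline pairs far apart (1.19 to 1.81). WT ConA 3 and KO ConA 3 stood apart from the rest of their groups on the second principal component, which held 7.77% of the variance, and KO saline 3 had 17120.2 TPM of summed blood cell markers against 1623 to 4346 in the other saline livers. Calls that change without these libraries, and values between the genotypes after ConA that move by over 1.5 times, are given both ways. The 12 hepatocyte markers were all detected, so the tissue label holds.

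Alb and Gc belong to the albumin gene family and share a part of chromosome 5. Alb (11657) lies from 90460897 to 90476602 on the plus strand, and Gc (14473) from 89417522 to 89457898 on the minus strand, with their annotated starts 1003 kb apart. Afp and Afm, the α-fetoprotein and afamin genes, follow Alb directly. Promoter sequences of RefSeq (GRCm38.p6) were at hand for 5 of the 7 genes, without Ttr and Serpina6. The 170 bases upstream of the RefSeq start of Alb (chr5:90460700-90460869, plus strand) and of Gc (chr5:89457899-89458068, minus strand) are shown because Gc was the gene whose profile over the 14 livers was nearest to that of Alb. Capitals mark the letters GTTAATNAT, a motif known from promoters of hepatocyte genes, and, in Alb, the letters TTGCNNAA of a C/EBP site read on the opposite strand.
Alb: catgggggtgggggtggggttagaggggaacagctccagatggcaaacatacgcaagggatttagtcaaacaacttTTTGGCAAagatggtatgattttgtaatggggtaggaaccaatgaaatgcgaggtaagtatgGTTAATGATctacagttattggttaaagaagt
Gc: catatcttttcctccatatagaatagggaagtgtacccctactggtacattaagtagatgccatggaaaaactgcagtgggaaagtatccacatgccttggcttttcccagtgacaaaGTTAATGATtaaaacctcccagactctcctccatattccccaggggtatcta

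Both windows held the same 9 letters GTTAATGAT, starting 32 bases before the RefSeq start in Alb and 52 bases before it in Gc. That start of Alb (90460870) lies upstream of the GENCODE start (90460897). The windows of Ahsg, Fetub and Rbp4 held neither GTTAATNAT nor GTTAAT. On either strand, GTTAATNAT was found in 0.781% of the 27025 promoters (250 bases upstream), its first 6 letters GTTAAT in 6.52%, and TTGCNNAA in 9.55%. The Ahsg window held TTGCNNAA as well, read on the opposite strand from base -32, and 1 of the 2 Rbp4 windows held it at base -128. Of the 250 bases of that Rbp4 window, 124 lie in annotated exons of Rbp4. The Ahsg window (22891765 to 22892014) lies inside the GENCODE span of Ahsg, with 0 bases in annotated exons. The shares of promoters count 1 window per gene. The letters TTCNNNGAA of a STAT site (7.18% of promoters) and the NF-kB motif (7.01%) were in none of the 7 windows of the 5 genes. These matches describe letters and say nothing of binding.

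In the WT saline livers Alb was the most abundant mRNA of the liver, at 87030.05, 71987 and 71714 TPM. Ttr followed at 14027 to 16714 TPM, then Ahsg at 8887 to 10899, Rbp4 at 7149.6 to 9380.1 and Gc at 6666 to 6908. Fetub (984 to 1119.9 TPM) and Serpina6 (641 to 994 TPM) were the lowest. Ranges of neighbours in this order overlapped for Ahsg with Rbp4 and for Fetub with Serpina6, and did not for the other neighbours. After ConA, Gc stood above Rbp4 in every liver of both genotypes (3959 to 4889.7 against 2569.5 to 2897 TPM in WT, and 3326 to 3927 against 2083 to 2622 TPM in KO). The order of this pair was thereby turned from that in the saline livers, where Rbp4 was the higher in every liver of both genotypes.

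To examine how ConA hepatitis changed the carriers in WT mice, WT ConA was compared with WT saline. All 7 carriers were lower in every ConA liver than in every saline liver, and 6 of 7 passed the test, with Serpina6 and Rbp4 the most reduced and Fetub the exception. Among 10768 tested genes, 31% were called lower and 22% higher, and 34.7% were lower without overlap of the groups, so falls of this kind were common in these livers. The median log2 fold change of the 7 carriers was -0.76, beside -0.07 over all tested genes. In RNA from whole liver, fewer hepatocytes and less mRNA per hepatocyte cannot be told apart.

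Serpina6, the carrier of cortisol and corticosterone in plasma, had 641, 994 and 971 TPM in WT saline and 207, 224.5, 206 and 191 TPM in WT ConA. The ConA livers were thus tightly grouped and far below the lowest saline liver. The log2 fold change was -2.04 (SE 0.17, adjusted p = 1.32e-05), and the fall ranked 283 among the tested genes. Rbp4, which carries retinol from the liver to other tissues, had 7149.6, 9380.1 and 9216 TPM in WT saline and 2707, 2569.5, 2767 and 2897 TPM in WT ConA. Its mean was 68.1% lower after ConA, a log2 fold change of -1.64 (SE 0.13, adjusted p = 1.25e-05). Ttr, the partner that keeps Rbp4 from filtration in the kidney and that carries thyroxine, changed less than Rbp4. It had 16714, 14027 and 14536 TPM in WT saline and 7734, 7336, 9948 and 7083 TPM in WT ConA, where replicate 3 was the highest. The log2 fold change of Ttr was -0.92 (SE 0.15, adjusted p = 0.000791).

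Alb itself had 56543, 37744, 42487 and 52469 TPM in WT ConA, against 71714 TPM in the lowest saline liver. The mean was 38.5% lower, from 76910.3 ± 8765 TPM (SD, n = 3) to 47310.6 ± 8691 TPM (SD, n = 4), with a log2 fold change of -0.71 (SE 0.17, adjusted p = 0.00685). Since Alb is so abundant, it carried 59.2% of the TPM that the 7 genes lost together, while Serpina6, with the largest fold change of the 7, carried 1.32%. Gc, the carrier of vitamin D and a scavenger of actin released from damaged cells, had 6826, 6908 and 6666 TPM in WT saline and 4386, 4005, 3959 and 4889.7 TPM in WT ConA. The saline livers lay close together, and Gc fell by 0.66 on the log2 scale (SE 0.12, adjusted p = 0.00146).

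The fetuins are cystatin-type proteins encoded side by side. Ahsg, which binds calcium phosphate in plasma, had 8887, 10899 and 10664 TPM in WT saline and 6846, 5681, 6371 and 5182 TPM in WT ConA. It was 40.7% lower on average, a log2 fold change of -0.76 (SE 0.14, adjusted p = 0.00176). Fetub, an inhibitor of the egg protease ovastacin, had 1119.9, 994 and 984 TPM in WT saline and 806, 641, 885 and 962 TPM in WT ConA. The highest ConA liver lay just under the lowest saline liver, and the log2 fold change of -0.34 (SE 0.15) did not pass the test (adjusted p = 0.091). Without WT ConA 4, the highest of the group, Fetub was called lower (-0.42, adjusted p = 0.0438).

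**Figure D1:**
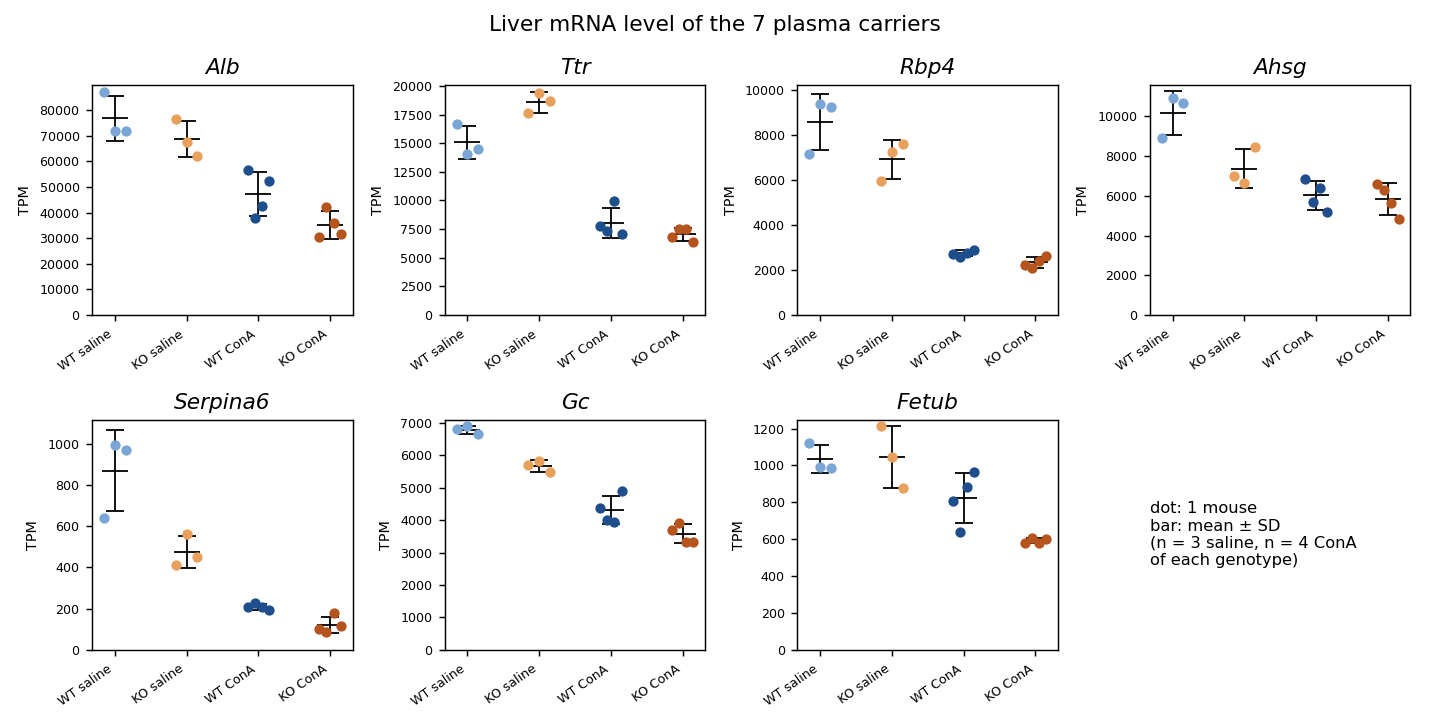
TPM (y axis, from 0) of each carrier by group (x axis), with a dot per mouse and black bars for the mean ± SD (n = 3 for the saline groups, n = 4 for the ConA groups). All ConA livers lie below all saline livers of the same genotype for each of the 7 genes, and KO saline lies below WT saline for Serpina6, Ahsg and Gc and above it for Ttr.

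The same comparison in the knockout, KO ConA against KO saline, gave 6 of 7 carriers called lower. Serpina6, Rbp4 and Ttr fell the most, Fetub passed the test here, and Ahsg did not. All 7 were lower without overlap of the groups. Of 10988 tested genes 30.7% were called lower, 33.9% higher, and 31.5% were lower without overlap. The median of the carriers was -0.98 on the log2 scale, beside 0.07 over all tested genes.

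Serpina6 had 409.97, 559 and 449 TPM in KO saline and 99.3, 87.2, 177 and 116 TPM in KO ConA, where replicate 3 was the highest. Its log2 fold change was -2.01 (SE 0.22, adjusted p = 1.42e-05). Rbp4 went from 5932, 7238 and 7578 TPM to 2228, 2083, 2396 and 2622 TPM, a log2 fold change of -1.57 (SE 0.14, adjusted p = 4.1e-06). These were the 2 largest falls of the 7, as in WT mice. Ttr had 17629, 19378 and 18662 TPM in KO saline and 6831, 7514, 7501 and 6364 TPM in KO ConA. Both groups were narrow, and the mean was 62% lower, a log2 fold change of -1.40 (SE 0.14, adjusted p = 8.58e-06).

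Alb had 76489, 67524 and 62303 TPM in KO saline and 30309.8, 42326, 35949 and 31501 TPM in KO ConA. The mean was 49.1% lower, from 68772 ± 7175 TPM (SD, n = 3) to 35022 ± 5441 TPM (SD, n = 4), and the log2 fold change was -0.98 (SE 0.19, adjusted p = 0.000953). Fetub had 1216, 1047 and 879 TPM in KO saline and 580.1, 608, 581 and 599.8 TPM in KO ConA. Its ConA livers were the least variable of all groups of this gene (SD of 13.9 TPM), and it fell by 0.81 on the log2 scale (SE 0.13, adjusted p = 0.00021). Gc went from 5713, 5827 and 5479 TPM to 3709, 3927, 3326 and 3343 TPM, a log2 fold change of -0.67 (SE 0.13, adjusted p = 0.0008) that was nearly that in WT mice. Ahsg had 6997, 6648 and 8458 TPM in KO saline and 6585, 6299, 5636 and 4817 TPM in KO ConA. The groups nearly met, and the log2 fold change of -0.34 (SE 0.16) did not pass the test (adjusted p = 0.0821).

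Beside these falls, the 12 hepatocyte markers summed to 26735 to 31158 TPM in the saline livers and to 11809 to 15102 TPM after ConA. Of these markers 8 were called lower and 1 higher in WT, and 9 lower and 3 higher in KO. The 8 neutrophil markers summed to 5.42 to 11.2 TPM with saline, and after ConA to 320 to 562 TPM (WT) and 415 to 957 TPM (KO), with 7 of 8 called higher in each genotype. The 8 T cell markers summed to 1.73 to 2.77 TPM (WT) and 3.36 to 3.88 TPM (KO) with saline, and to 3.54 to 5.25 TPM (WT) and 6 to 9.02 TPM (KO) after ConA. Most T cell markers lay under the TPM filter. In WT 1 was tested and called higher, and in KO 2 were tested and 1 was called higher. None of the hepatocyte, neutrophil and T cell markers was at 0 in every liver of a group. Of 8 Kupffer cell markers, 7 were called lower in WT and 3 in KO, and of 4 tested monocyte and macrophage markers, 2 were called higher in WT and 3 in KO. Of 7 sinusoidal endothelial markers, 3 were called lower in each genotype and 2 (WT) or 3 (KO) higher. Stellate cell markers were called lower in 1 of 2 (WT) and 3 of 5 (KO), and of 5 cholangiocyte markers 3 (WT) and 1 (KO) were called higher and 1 lower in each. The blood cell markers were called lower in the knockout (5 of 5), whose saline group contains the blood-rich KO saline 3, and the count of carriers called in KO was 6 without that library as well. The part of cell composition in the falls was not tested.

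**Figure D2:**
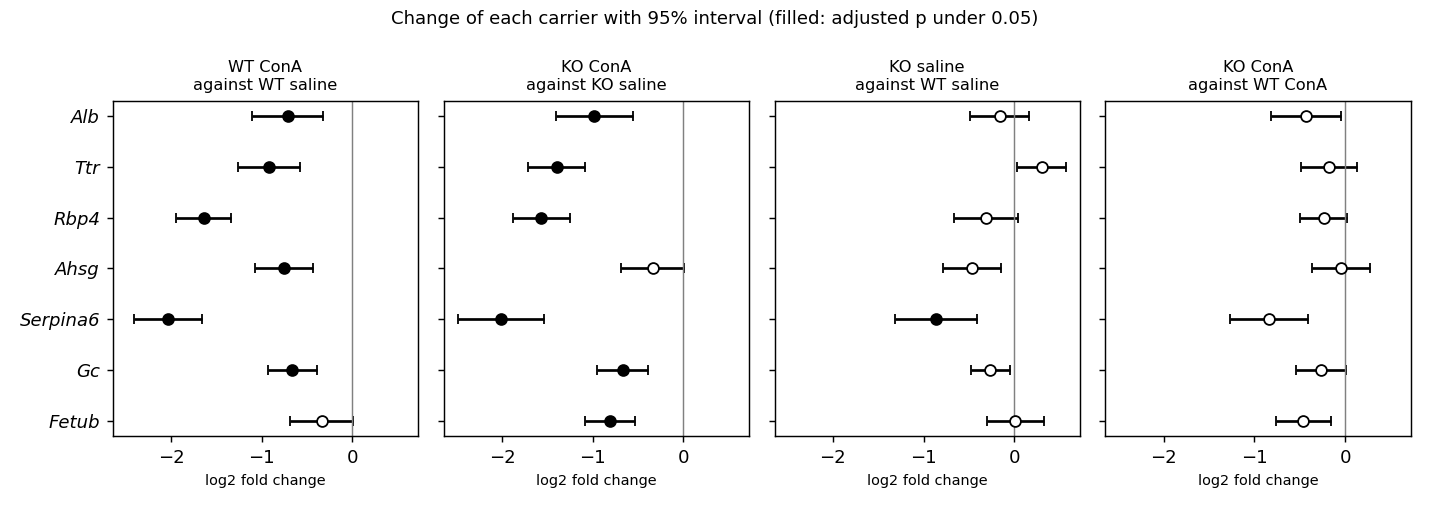
Log2 fold change (x axis) of each carrier (rows) in 4 comparisons (panels), with its 95% interval from limma. Filled dots passed an adjusted p of 0.05. The 2 ConA comparisons have 6 filled dots each, all left of 0, KO saline against WT saline has 1, and KO ConA against WT ConA has none.

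TPM is a share, and the rest of the library moved at the same time. Together, the 7 carriers held 11.5% to 12.8% (WT) and 10.4% to 11.4% (KO) of the library with saline, and 5.82% to 7.92% (WT) and 4.94% to 6.28% (KO) after ConA. The 24 positive acute-phase genes on the list held 2.62% to 3.74% with saline and 25.4% to 30.1% after ConA. The summed carriers exceeded the summed positive acute-phase mRNAs in every saline liver, by a ratio of 2.89 to 3.97, and the ratio was 0.169 to 0.312 after ConA. Alb was the top gene of all saline livers and of WT ConA 1 and 4, whereas serum amyloid A2 (Saa2) led the other 6 ConA livers and left Alb at rank 2 or 3.

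**Figure D3:**
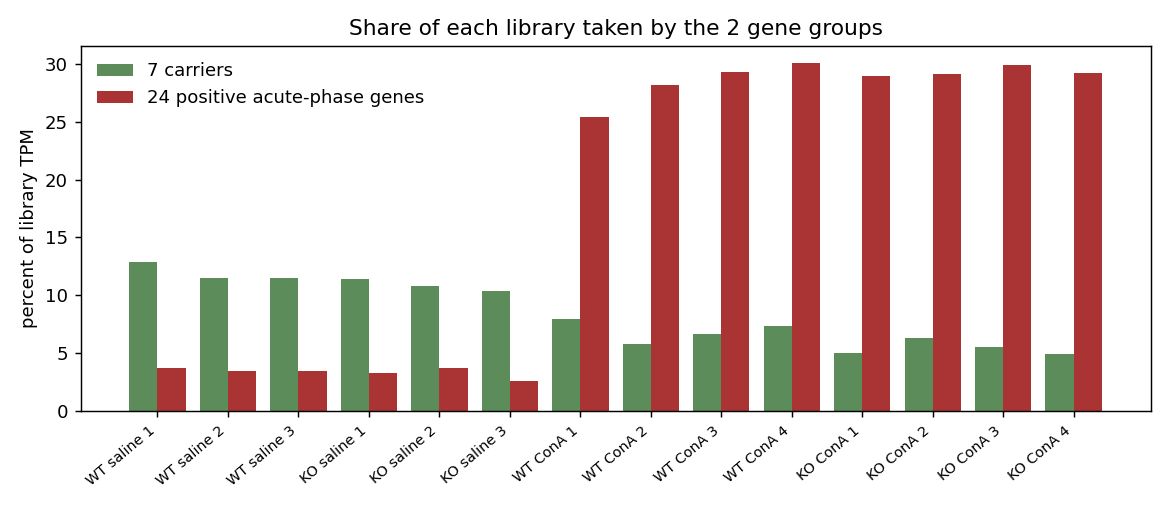
Percent of library TPM (y axis, from 0) held by the 7 carriers (green) and by the 24 positive acute-phase genes (red) in each of the 14 livers (x axis). The carriers are above the positive acute-phase genes in all 6 saline livers and below them in all 8 ConA livers.

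A mRNA whose amount per cell does not change loses share when others rise. To give the changes apart from these rises, the positive acute-phase genes were left out of the total. This moved every log2 fold change of ConA against saline by 0.43 in WT and 0.45 in KO, and the share of genes called lower and higher became 18.3% and 39.7% in WT and 20% and 50.5% in KO. Serpina6 (-1.61 in WT, -1.56 in KO), Rbp4 (-1.21 and -1.11) and Ttr (-0.49 and -0.94) stayed called lower in both genotypes. In WT, Alb (-0.29, adjusted p = 0.181), Ahsg (-0.33, adjusted p = 0.0662) and Gc (-0.24, adjusted p = 0.135) were no longer called, and 3 carriers remained. In KO, Gc (-0.22, adjusted p = 0.154) was lost, and Alb (-0.53, adjusted p = 0.0342) and Fetub (-0.36, adjusted p = 0.0276) were kept. The uncalled values of Fetub in WT (0.09) and Ahsg in KO (0.11) changed sign. A rescaling by the median ratio of all genes moved the fold changes by 0.10 in WT and -0.04 in KO and left the same genes called. The share of all genes called after ConA on that scale is not given here.

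**Figure D4:**
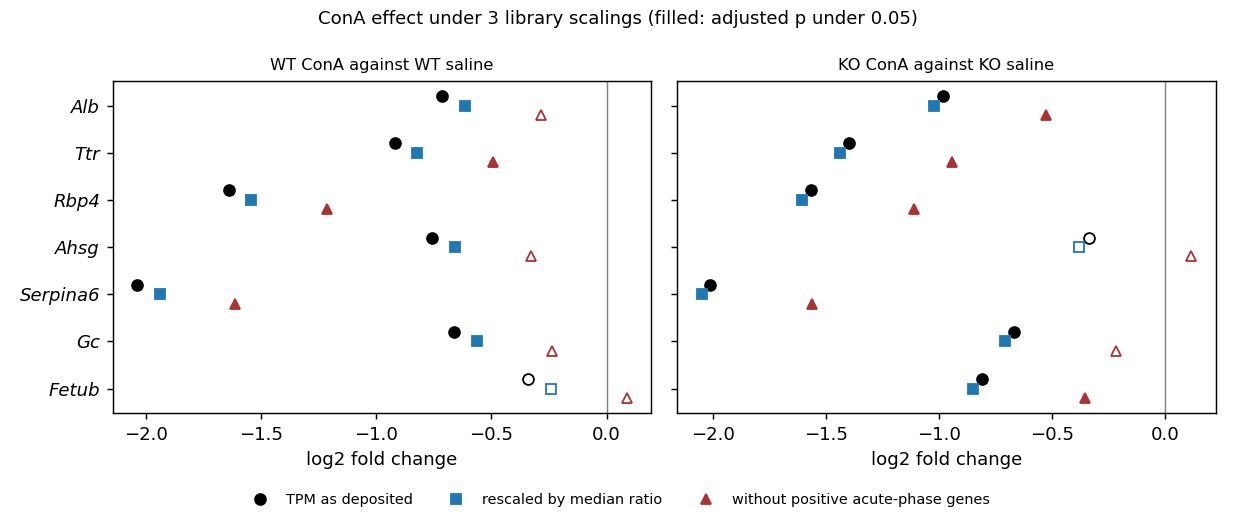
Log2 fold change after ConA (x axis) of each carrier (rows) in WT (left) and KO (right) with TPM as deposited (circles), rescaled by the median ratio (squares) and with the positive acute-phase genes left out of the total (triangles). Filled symbols passed an adjusted p of 0.05. The triangles lie about 0.43 (WT) and 0.45 (KO) to the right of the circles, and Serpina6, Rbp4 and Ttr keep filled symbols throughout.

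A ratio within a library does not depend on its total, and each carrier was therefore also given as a percentage of Alb TPM in the same liver. Rbp4 was 8.22% to 13% of Alb with saline and 4.79% to 6.81% after ConA in WT mice, and the groups did not overlap. Serpina6 was 0.737% to 1.38% of Alb with saline and 0.364% to 0.595% after ConA, again without overlap. Relative to Alb, Rbp4 changed by -0.93 and Serpina6 by -1.33 on the log2 scale, each with an exact two-sided permutation p of 0.0571, the smallest that 4 against 3 livers can give. Ttr (-0.21), Ahsg (-0.04) and Gc (0.05) had log2 ratios to Alb whose groups overlapped, with exact permutation p-values of 0.457, 0.8 and 0.857. Fetub was 1.29% to 1.38% of Alb with saline and 1.43% to 2.08% after ConA, higher in every ConA liver (0.37, exact permutation p = 0.0571).

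In KO mice Serpina6 was 0.536% to 0.828% of Alb with saline and 0.206% to 0.493% after ConA, a log2 difference of -1.04. Ttr was 23% to 29.95% of Alb with saline and 17.8% to 22.5% after ConA (-0.42). Rbp4 was 7.75% to 12.2% of Alb with saline and 4.92% to 8.32% after ConA (-0.58), and its groups overlapped. Higher against Alb in every KO ConA liver were Ahsg, at 14.9% to 21.7% beside 9.15% to 13.6% with saline (0.64), and Gc, at 9.25% to 12.2% beside 7.47% to 8.79% (0.31). The exact permutation p was 0.0571 for Serpina6, Ttr, Ahsg and Gc, 0.114 for Rbp4 and 0.229 for Fetub. Such ratios were compared 24 times (6 genes in 4 comparisons), and no comparison with a group of 3 livers can reach 0.05.

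**Figure D5:**
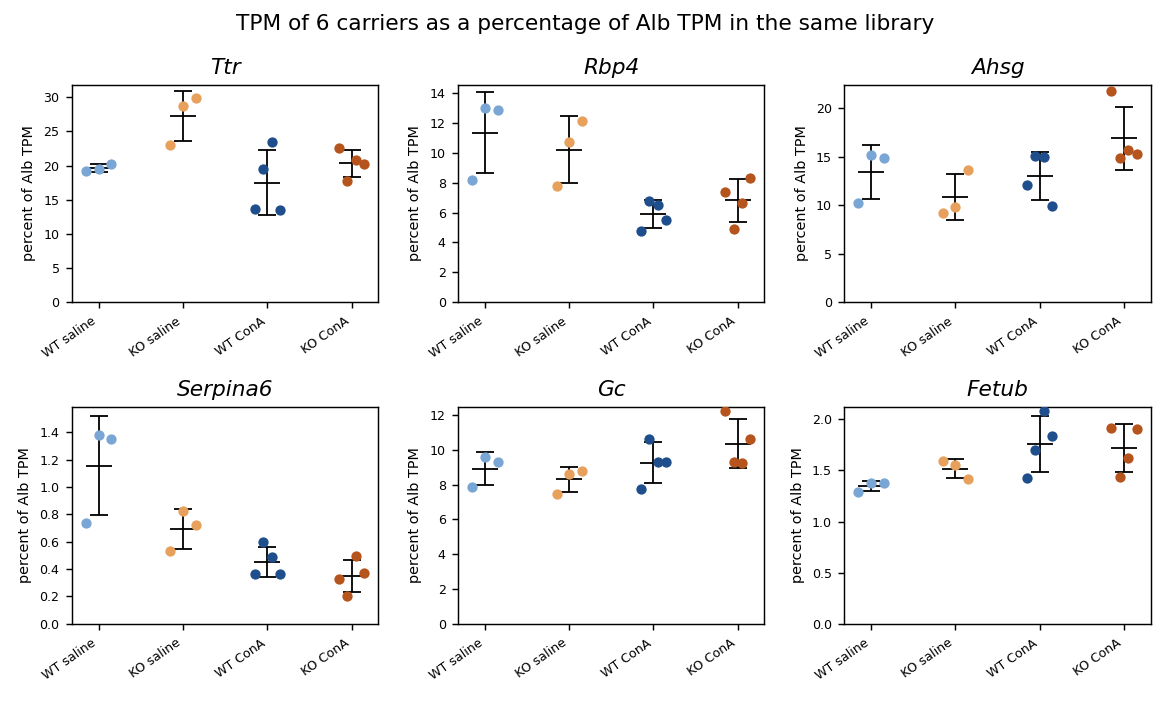
TPM of 6 carriers as a percentage of Alb TPM in the same liver (y axis, from 0) by group (x axis), with a dot per mouse and black bars for the mean ± SD. Serpina6 lies below its saline level after ConA in both genotypes, while Ahsg and Gc do not fall against Alb, and KO ConA 1 (21.7% for Ahsg) lies above the other livers.

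The ratios to Alb were also fitted with limma over all genes, where 2 carriers were called lower in WT (Rbp4 and Serpina6), beside 8.5% of genes lower and 52.1% higher. In KO, Rbp4 and Serpina6 were called lower and Ahsg higher, beside 7.37% lower and 69% higher. Without KO saline 3, Rbp4 was not called against Alb in KO (-0.45, adjusted p = 0.162), nor without KO saline 2 (-0.54, adjusted p = 0.11). The call of Ahsg was lost without KO ConA 1 (0.52, adjusted p = 0.101). It was also lost without KO saline 1 (0.53, adjusted p = 0.11) or KO saline 2 (0.58, adjusted p = 0.0868). Between genotypes no ratio was called with saline (0.688% of genes lower, 5.79% higher) or after ConA (0.209% lower, 18.5% higher). An unadjusted p under 0.05 was found for 2 and 0 of the 6 ratios, and the share of all genes at that threshold was not taken. The spread of Alb between livers enters every gene of such a fit in the same way, the genes are then not independent, and these calls are less strict than their adjusted p.

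To ask whether the knockout changed the carriers before any challenge, KO saline was compared with WT saline. Serpina6 was lower in KO and was the only carrier that passed the test, 45.6% lower on average (log2 fold change -0.86, SE 0.19, adjusted p = 0.0286). Of 10459 tested genes 12.9% were called lower and 6.3% higher. With the median ratio as the scale these shares were 7.4% and 7.14%, and Serpina6 was still called (-0.80, adjusted p = 0.0461). Ahsg (6648 to 8458 TPM in KO, 8887 to 10899 in WT) and Gc (5479 to 5827 TPM in KO, 6666 to 6908 in WT) were also lower in every KO liver, with log2 fold changes of -0.46 (adjusted p = 0.053) and -0.26 (adjusted p = 0.08). Ttr went the other way. Its 17629 to 19378 TPM in KO lay above the 14027 to 16714 TPM of WT, a log2 fold change of 0.30 (SE 0.11, adjusted p = 0.0973).

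Lower and higher without overlap held 3 and 1 of the 7 carriers in this comparison, beside 29.2% and 13% of all genes. Of the carriers, 4 had an unadjusted p under 0.05 by limma, and the share of all genes at that threshold was not taken. Rbp4 (-0.31), Alb (-0.16) and Fetub (0.01) had overlapping groups. The call of Serpina6 was lost without WT saline 2 (-0.75, adjusted p = 0.114), WT saline 3 (-0.77, adjusted p = 0.126) or KO saline 1 (-0.76, adjusted p = 0.083), and with the near-identical WT saline 2 and 3 averaged into 1 liver (-0.76, adjusted p = 0.119). Without WT saline 1 or KO saline 3, Ahsg was called as well (-0.56, adjusted p = 0.0357, and -0.57, adjusted p = 0.0235).

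After ConA, the question was whether carriers differed between KO and WT mice. All 7 log2 fold changes of KO ConA against WT ConA were below 0, with a median of -0.27 beside 0.05 over all tested genes, but 0 of 7 passed the test. Of 10519 tested genes 0.0856% were called lower and 0.342% higher, and with the median ratio as the scale 0.124% and 0.115%. An unadjusted p under 0.05 by limma was found for 3 carriers: Alb (0.0332), Serpina6 (0.00131) and Fetub (0.00637). The share of all genes at that unadjusted threshold was not taken, so this count has no background beside it. Those lower in KO without overlap were Serpina6, Gc and Fetub, 3 of 7 beside 4.11% of all genes. Since WT ConA and KO ConA also enter the comparisons above, the values are given side by side and are not independent of them.

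Serpina6 had 99.3, 87.2, 177 and 116 TPM in KO ConA against 207, 224.5, 206 and 191 TPM in WT ConA. The means differed by 42.2%, close to the 45.6% seen with saline, and the log2 fold change was -0.84 (SE 0.19, adjusted p = 0.0718). KO ConA 3 was the closest to WT, and without it the log2 fold change was -1.04 (adjusted p = 0.034). With both ConA libraries numbered 3 left out it was also -1.04 (adjusted p = 0.033). Fetub was 28.1% lower in KO ConA (-0.46, SE 0.14, adjusted p = 0.134). A limma fit on all 14 livers called Serpina6 (adjusted p = 0.0227) and Fetub (adjusted p = 0.0498), 2 of 7. The share of all genes called in that fit was not taken, so this count has no background beside it. Alb was 26% lower on average (-0.43, SE 0.18, adjusted p = 0.252), with KO ConA 2 (42326 TPM) inside the range of WT ConA. Ahsg differed by 3.08% (-0.05, 95% interval -0.37 to 0.27), Ttr by 12.1% (-0.18, -0.49 to 0.14) and Rbp4 by 14.7% (-0.23, -0.49 to 0.03). Without WT ConA 3, which had the highest Ttr of its group (9948 TPM), the log2 fold change was -0.07 for Ttr and -0.02 for Ahsg, and without both libraries numbered 3 it was -0.10 for Ttr and -0.004 for Ahsg.

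Whether ConA acted differently on the carriers in the knockout was tested as the interaction of genotype and ConA over all 14 livers. None of the 7 carriers passed (0 of 7, beside 4.78% of 11327 tested genes). An unadjusted p under 0.05 by limma was found for 2, and the share of all genes at that threshold was not taken. Ttr had a difference of -0.48 between the 2 log2 fold changes (95% interval -0.88 to -0.07, unadjusted p = 0.0243, adjusted p = 0.139). Fetub had -0.47 (-0.89 to -0.05, unadjusted p = 0.0317, adjusted p = 0.156). For Serpina6 the difference was 0.03, with an interval of -0.61 to 0.66 (-0.18 without KO ConA 3), and for Gc -0.01 (-0.34 to 0.33). Alb (-0.27), Rbp4 (0.07) and Ahsg (0.42) had intervals that included 0.

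The carriers were set beside 23 other hepatocyte plasma carriers and negative acute-phase proteins. Of the 21 tested, 15 were called lower and 2 higher in WT ConA, with a median of -0.78, and 15 lower and 4 higher in KO ConA, with a median of -0.76. Igfals, the acid-labile subunit that holds IGF in plasma, had 110 to 148 TPM in WT saline livers and 5.74 to 12.4 TPM after ConA. Its fall (-3.86, adjusted p = 2e-06) was larger than that of any of the 7 carriers. Hrg, the neighbour of Fetub, fell by 1.45 (adjusted p = 1.64e-05), Azgp1, a lipid-mobilizing plasma glycoprotein, by 1.22 (adjusted p = 2.29e-05) and Proc, the anticoagulant protein C, by 1.26 (adjusted p = 4.45e-05). None of the list passed between KO ConA and WT ConA. Itih2, a heavy chain of the inter-α-trypsin inhibitor, went opposite ways in the genotypes on TPM as deposited. It fell in WT (-0.65, adjusted p = 0.0125) and rose in KO (0.35, adjusted p = 0.0234), where the groups overlapped. The interaction was 1.003 (adjusted p = 0.028). Leaving the positive acute-phase genes out of the total moves these fold changes up by 0.43 (WT) and 0.45 (KO), and the calls of Itih2 on that scale are not given here.

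The positive acute-phase list moved against the carriers, with 23 of 24 genes called higher in each genotype and 0 lower. Saa2 had 101 to 154 TPM in WT saline livers and 42234 to 49917 TPM after ConA (log2 fold change 8.60). Saa3 rose by 8.85, the iron-siderophore binder Lcn2 by 7.78 and the protease inhibitor Serpina3n by 3.99. With saline, 9 of the 24 were called lower in KO, among them Saa2 (-1.06, adjusted p = 0.0231), Serpina3n (-1.27, adjusted p = 0.00424) and the metalloreductase Steap4 (-0.49, adjusted p = 0.0369). Between KO ConA and WT ConA 0 were called, and the median difference was 0.04. The interaction was called for 7 of the 24, all with the larger rise in KO, beside 4.78% of all tested genes in either direction. Serpina3n had the value 1.66 (adjusted p = 0.000792).

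Receptors and enzymes that handle the carriers or their ligands formed a further list. Of 16 tested in WT, 12 were called lower and 2 higher, with a median of -0.92, and of 17 tested in KO, 11 lower and 2 higher. Dio1, the deiodinase of liver that acts on thyroxine, fell by 1.42 (adjusted p = 2.14e-05) in WT. Fcgrt, the heavy chain of the neonatal Fc receptor that rescues albumin from degradation, fell by 1.37 (adjusted p = 3.51e-05) and Asgr2, a subunit of the asialoglycoprotein receptor, by 1.29 (adjusted p = 2.93e-05). Hsd11b1, which regenerates active glucocorticoid in hepatocytes, fell by 1.07 (adjusted p = 0.000377). None of the list passed between KO ConA and WT ConA.

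Of 20 tested hepatocyte transcription factors, 10 were called lower and 3 higher in WT ConA, and 8 lower and 5 higher in KO ConA. The nuclear receptor Nr1i3 had 195 to 196 TPM in WT saline livers and 4.81 to 6.28 TPM after ConA (-4.95, adjusted p = 3.38e-08), and the clock output factor Dbp fell by 4.47 (adjusted p = 1.44e-05). Cebpd (2.85, adjusted p = 9.81e-07) and Cebpb (1.17, adjusted p = 3.7e-05), which bind C/EBP sites, rose. Cebpa, of the same family, named here after its values were seen, went the other way in WT, from 253 to 263 TPM with saline to 135 to 227 TPM after ConA (-0.59, adjusted p = 0.0183), and had -0.28 in KO (adjusted p = 0.0808). The bile acid receptor Nr1h4 had a log2 fold change of -1.80 in WT and -2.71 in KO, and -1.35 (adjusted p = 0.0664) in KO ConA against WT ConA.

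Likeness of profile was measured as the root mean square difference of log2(TPM + 1) over the 14 livers, each gene set to 0 at its WT saline mean, among 5277 genes of at least 10 TPM on average. Most of any such likeness is the shared step from saline to ConA, and the values are a description. Gc was the nearest gene to Alb (0.192), followed by Cpq (0.196) and Ebpl (0.198). Gc itself was nearest to Kng1 (0.0995), the kininogen gene, which had 2644 to 2751 TPM with saline and 1563 to 1731 TPM after ConA in WT mice, and then to 1300017J02Rik (0.101) and Gins4 (0.103). Near to Ttr were Bola3 (0.123) and Mettl26 (0.128), which also had their highest group mean in KO saline. Rbp4 was nearest to Gsto1 (0.126), Msrb1 (0.146) and Sar1b (0.157), Ahsg to Timm44 (0.134), Serpina1b (0.162) and Mtch1 (0.164), and Fetub to B2m (0.168), Acp5 (0.175) and Gtf2h5 (0.178). Serpina6 had no gene within 0.3, against 117 to 479 genes for each of the other 6. Its nearest were Pxmp2 (0.355), Tlcd2 (0.386) and Aldh1a1 (0.387), an enzyme that makes retinoic acid, which had 917 to 1153 TPM with saline in WT and 461 to 749.9 TPM in KO.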

How the data were processed

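Liver total RNA of 14 mice was sequenced on a BGISEQ-500 with single-end reads of 50 bases. The authors deposited 1 table of TPM values per mouse, which sums to 1000000 over 17656 genes. The submitters' processing notes name Bowtie2, RSEM 1.3.1 and GRCm38.p6, while the study's methods name STAR and HTSeq; the annotation and the read numbers are not given in the sources used here. Groups and replicate numbers came from the sample labels. Mice are the replicates.

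The count-based test of the study needs read counts, so differences were fitted here on log2(TPM + 1) with limma 3.58.1 (lmFit, eBayes, trend on mean level) under R 4.3.3. A gene entered the test if its TPM reached 1 in a number of libraries equal to the size of the smaller group. Calls are at an adjusted p (Benjamini-Hochberg, over all tested genes) below 0.05. Fold changes on this scale understate the change of low genes. Each comparison used its own groups, and the interaction all 14 libraries. Ratios to Alb were also compared with exact two-sided permutation tests (SciPy 1.17.1). The fit was tested on simulated data whose fold changes were set in advance. The 7 members, 13 gene lists and naming rule were chosen with earlier results of these data known. Named are the members, from each list that holds no cell type markers the 4 genes of smallest p in WT ConA against WT saline and the 2 in KO ConA against WT ConA, the 3 genes most like each member, and Ythdf1, apart from a few genes that are not reported here. Alternatives were a pseudocount of 0.1, a TPM filter of 5 or none, 2 other scalings, all 14 libraries in the fit, robust eBayes, a replicate block, WT saline 2 and 3 averaged, and each library left out. Leaving out both ConA libraries numbered 3 was chosen after seeing the data. Sequences are from RefSeq. Tables and figures used Python 3.11.15, pandas 2.3.3 and matplotlib 3.10.9.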

Additional observations from a re-analysis of the deposited data

Results flagged for a closer look

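Ahsg as a percentage of Alb was 21.7% in KO ConA 1, against 14.9% to 15.7% in the other 3 KO ConA livers, a gap larger than Dixon's critical value for a group of 4. That liver had the lowest Alb of the group (30309.8 TPM) and the highest Ahsg (6585 TPM). It was the only value so marked among 28 groups of 4 livers (the TPM of the 7 carriers, their sum and the 6 ratios to Alb, in WT ConA and KO ConA), and chance marks about 1 in 20 groups.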

How the results depend on the processing

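Of 602 recomputed log2 fold changes of single carriers (ratios to Alb aside), 552 kept their direction and side of the threshold. Another 26 changed sign and were uncalled both in the main fit and in that alternative. Of the rest, 12 lost a call and 12 gained one, and no called value changed sign. In WT ConA against WT saline 6 carriers were called (6 to 7 with each library left out), and 3 with the positive acute-phase genes left out of the total. In KO ConA against KO saline the 6 calls held with each library left out. Without a TPM filter Alb was not called in WT (adjusted p = 0.205) or KO (adjusted p = 0.0576). In KO saline against WT saline the count of 1 became 2 with a TPM filter of 5, with the positive acute-phase genes left out, with robust eBayes and with the replicate block, and 0 without a filter, with all 14 libraries in the fit and with WT saline 2 and 3 averaged (0 to 2 with each library left out). In KO ConA against WT ConA the count of 0 became 2 with all 14 libraries and 1 without both ConA libraries numbered 3 (0 to 1 with each library left out). Relative to Alb, the 3 calls in KO became 1 with the replicate block (1 to 3 with each library left out), and the 0 calls with saline became 2 with the replicate block (0 to 1 with each library left out). Among the alternatives, shares of all genes called are given for the 2 other scalings only. They are given between genotypes for the median ratio, and between ConA and saline with the positive acute-phase genes left out. The cause of these changes was not tested. Same-numbered libraries deviated together only in part (correlations of -0.19 to 0.41, and in no comparison over 0.1 for every pair), so the numbers were not taken as pairs. Without read counts, the precision of the low TPM values is unknown.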
